A study of Mus musculus with 4 samples.

Results

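Receptors that bind nectins and nectin-like proteins were followed at the transcript level in mouse natural killer (NK) cells. The genes were listed by name, by a rule that sets no threshold on a measured value but with earlier results of these data known: Tigit, Cd226, Cd96, Crtam and Pvrig. Of these 5 genes, 4 were among the 35275 gene identifiers of the deposited tables, and Pvrig (ENSMUSG00000109713) was not listed there and has no value here. NK cells are lymphocytes of innate immunity with cytotoxic granules, directed at infected and transformed cells. They were enriched from spleen with a kit, sorted as CD3-negative, NK1.1-positive cells, and measured by bulk RNA sequencing in 4 libraries, 1 per group.

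The groups were mice labelled Irf4-/- that had received B16-F10 cells intravenously 20 days earlier (Irf4-/- injected), mice labelled Irf4-/- without injection (Irf4-/- control), wild-type C57BL/6 mice with the same injection (WT injected) and wild-type mice without it (WT control). B16-F10 is a mouse melanoma line. IRF4 is a transcription factor of lymphocytes. The labels give neither age nor sex, nor the number of mice behind a library, nor which part of Irf4 was deleted.

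TIGIT, DNAM-1 (the product of Cd226) and CD96 are a receptor family that competes for shared ligands. CD155, encoded by Pvr, is bound by all of them, and nectin-2 chiefly by DNAM-1. DNAM-1 activates NK cells and supports their adhesion to targets, TIGIT inhibits them, and CD96 is mostly described as inhibitory in mice. CRTAM binds the nectin-like protein encoded by Cadm1 and appears on activated NK and CD8 T cells, and PVRIG is an inhibitory receptor for nectin-2.

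Library totals ran between 15878159 and 21104881 counts, so the members rested on 443 to 1964 counts each and counting error was small. All 11 NK cell markers, among them Ncr1 and Klrk1, were detected in every library, with summed levels of 15000 to 16600 CPM (counts scaled to library size). Summed T cell markers stood at 49.4 to 56.9 CPM. Irf4 itself had 236 counts in Irf4-/- injected, 188 in Irf4-/- control, 57 in WT injected and 93 in WT control. It was thus higher in the libraries labelled Irf4-/-. Counts over a whole gene do not test a deletion of unknown extent, so each genotype direction is that of the library labelled Irf4-/-. WT injected stood farthest from the others, with root mean square log2 differences of 0.359 to 0.399 over 9674 genes, against 0.234 to 0.325 between the other libraries. It also had the fewest genes with a count, 17678 against 17969 to 18684. Genotype in control mice and injection in Irf4-/- mice are the comparisons that do not use it. In bulk libraries, fewer cells carrying a transcript and less transcript per cell cannot be told apart.

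The order of the receptors by level differed between libraries, and Tigit varied most. In FPKM, which is scaled to gene length as well as library size, Tigit led in 2 libraries and Cd226 and Cd96 in 1 each. In Irf4-/- injected the order was Tigit 52.8, Cd96 45.2, Cd226 44.7 and Crtam 39.8 FPKM. In Irf4-/- control it was Cd226 45.0, Cd96 37.1, Tigit 29.0 and Crtam 22.5 FPKM. WT injected had Tigit at 93.1, Cd96 at 47.2, Crtam at 33.4 and Cd226 at 27.7 FPKM, and WT control had Cd96 at 35.8, Tigit at 32.9, Cd226 at 29.1 and Crtam at 27.7 FPKM. Tigit was therefore first in both injected libraries and in neither control. Among protein-coding genes with a count, Tigit ranged from place 2625 of 14285 in Irf4-/- control to place 641 of 14151 in WT injected. For scale, Ncr1, the gene of the activating receptor NKp46, was at 724 to 978 FPKM. The authors' FPKM used gene lengths of 963 bp for Tigit, 2357 for Cd226, 2184 for Cd96 and 1938 for Crtam. The exons of GENCODE M21 together span 919, 4891, 2184 and 5131 bp for the same genes, so levels of Cd226 and Crtam relative to the others depend on that choice.

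**Figure D1:**
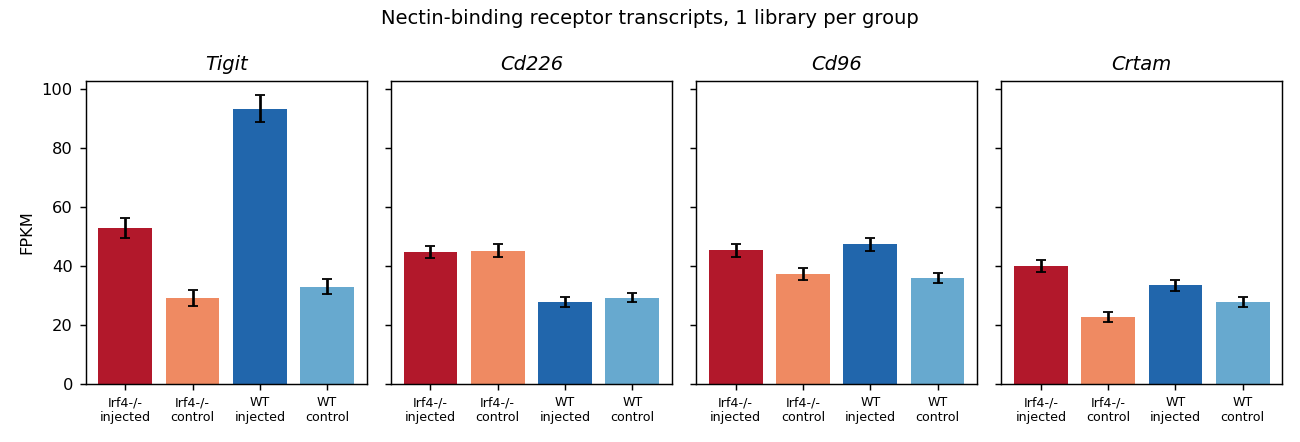
Deposited FPKM of the 4 receptor genes with values, 1 bar per library on a linear axis from 0, with 95% Poisson counting intervals as error bars. Tigit reached 93.1 FPKM in WT injected, and Cd226 was at 44.7 and 45.0 FPKM in the libraries labelled Irf4-/- against 27.7 and 29.1 FPKM in WT.

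Tigit (ENSMUSG00000071552) lies on chromosome 16, minus strand, 43648867 to 43664146 in GRCm38, and Cd96 (ENSMUSG00000022657) on the same chromosome and strand, 46035657 to 46120251. No annotated gene overlaps either. Their promoters, from RefSeq on GRCm38.p6, are printed because both receptors were more abundant in the injected libraries of both genotypes and the labelled genotype is that of a DNA-binding factor. The table of promoters held 3 of the 5 receptor genes, Tigit, Cd96 and Pvrig. The windows are chr16:43664135-43664434 and chr16:46120199-46120498, read 5′ to 3′ on the gene's strand, 250 bases before to 50 after the start. Capitals mark matches, on either strand, to 4 motifs. These were TGANTCA (AP-1), TGTGGT (Runx), the interferon-stimulated response element and the ETS and IRF composite element. In the response element an IRF half-site GAAA follows another one after 2 bases of any kind, and in the composite element it follows the ETS core GGAA at the same spacing. No matches overlapped.
Tigit: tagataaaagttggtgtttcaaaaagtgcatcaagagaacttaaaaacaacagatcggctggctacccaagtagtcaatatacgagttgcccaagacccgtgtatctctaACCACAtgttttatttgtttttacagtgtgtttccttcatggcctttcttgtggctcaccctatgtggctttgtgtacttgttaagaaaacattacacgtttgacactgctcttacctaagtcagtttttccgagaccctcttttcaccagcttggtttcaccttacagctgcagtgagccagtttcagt
Cd96: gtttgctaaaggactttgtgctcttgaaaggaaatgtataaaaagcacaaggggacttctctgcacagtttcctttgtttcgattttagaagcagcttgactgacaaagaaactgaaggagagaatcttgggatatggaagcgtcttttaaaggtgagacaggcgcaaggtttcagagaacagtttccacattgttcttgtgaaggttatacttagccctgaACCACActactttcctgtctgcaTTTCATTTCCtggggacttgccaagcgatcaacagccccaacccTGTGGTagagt
Tigit held 1 match, to the Runx letters, and Cd96 held 3, of which 2 were to the Runx letters and 1, TTTCATTTCC, to the composite element across the start site. Runx letters occur in 16.8% of 32851 promoters of this length and the composite element in 2.72%. The other motifs occur in 3.44% (the response element) and 7.81% (AP-1), and neither was found in these windows. Such matches describe letters and not binding.

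Tigit, the inhibitory receptor for CD155, was higher in injected than in control libraries of both genotypes. It had 947 counts (50.8 CPM) in Irf4-/- injected and 443 (27.8 CPM) in Irf4-/- control. In WT mice it had 1671 counts (90.1 CPM) in the injected library and 668 (31.6 CPM) in the control. Both injected libraries lay above both controls, and each step in the order of the libraries exceeded counting error, although the counting interval between the controls began at 0.01 on the log2 scale.

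The log2 ratio of injected over control was 0.87 (95% counting interval 0.70 to 1.03) in Irf4-/- mice and 1.51 (1.38 to 1.64) in WT mice. Such intervals cover counting error alone and may be too narrow, since PCR copies of 1 molecule may be counted separately. With a threshold of 2-fold, among genes averaging 5 CPM or more, Tigit did not pass upward in Irf4-/- mice, where 0.134% of 9702 genes did, and passed in WT mice, where 1.11% of 9633 genes did. By size of the upward ratio it was at place 27 in Irf4-/- mice and at place 31 in WT mice. Over all 4 libraries, with genotype and injection as additive terms, Tigit rose with injection, with a log2 change of 1.20 (SE 0.148, adjusted p 0.0057, edgeR quasi-likelihood test), as 0.333% of 11998 genes did. The direction was the same in 2 of 2 genotypes. This model has 1 residual degree of freedom, given by the departure of the gene's libraries from additivity. Its error joins that departure to a prior estimated from all genes tested, which has 9.62 degrees of freedom and so more weight. Neither part measures the spread between mice.

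By genotype label, Tigit was lower in the library labelled Irf4-/- of each pair, although Irf4-/- injected (50.8 CPM) lay above WT control (31.6 CPM). The log2 ratio of Irf4-/- over WT was -0.83 (-0.94 to -0.71) in injected mice, and 106 of 9685 genes were at least as low. In control mice, the pair that does not use WT injected, it was -0.18 (-0.36 to -0.01), and 1234 of 9660 genes were at least as low. No receptor reached 2-fold by genotype, as 1.78% of genes in injected and 0.807% in control mice did, and counting intervals excluded 0 for 54.7% and 36.6% of genes. The genotype change in the additive model was -0.52 (SE 0.147, adjusted p 0.164, edgeR), which did not pass. It did pass under other processing, with an adjusted p of 0.00357 with no filter on low counts and 0.00253 with scaling factors taken from all genes. The response to injection in Irf4-/- mice minus that in WT mice was -0.65 on the log2 scale (-0.85 to -0.44). With 4 libraries this difference has no test, and 283 of 9674 genes had one at least as low.

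Some markers of other cells moved with Tigit. The summed list of type 1 innate lymphoid genes, cells that share the sorting gate, was at 246 CPM in Irf4-/- injected, 127 in Irf4-/- control, 237 in WT injected and 91.8 in WT control, with 5 of 5 genes detected throughout. Il7r, the gene of the interleukin-7 receptor, carried most of the injection difference, at 144, 63.8, 200 and 61.5 CPM in that order, and was the 1 gene of the list that rose with injection (log2 change 1.44, edgeR adjusted p 0.000559). The other 4 genes summed to 102, 63.3, 37.1 and 30.3 CPM, higher in both libraries labelled Irf4-/- than in either WT library. The monocyte and macrophage list was at 72.4, 59.5, 89.0 and 38.7 CPM in the same order of libraries, with 10 of 10 genes detected. Without Lyz2, the gene of lysozyme, the other 9 genes summed to 64.2, 40.8, 84.2 and 26.6 CPM, higher in both injected libraries than in either control. With injection Vcam1 (3.99-fold, edgeR adjusted p 0.0172) and C1qc (3.44-fold, edgeR adjusted p 0.0429) rose. The other 7 of these genes did not pass but also had log2 changes above 0, from 0.34 (Cd68) to 1.57 (C1qb). Lyz2 fell by 1.26 on the log2 scale (edgeR adjusted p 0.0198). The part of either list in the Tigit result was not tested. The B cell list (5 of 5 genes detected) was lower in the injected libraries, at 18.2, 30.9, 9.98 and 27.1 CPM in that order. The dendritic cell list (5 or 6 of 6 genes, Cd209a at 0 in both injected libraries) was at 14.4, 16.8, 9.87 and 12.3 CPM. Zbtb46 made up most of the dendritic cell list, at 11.7, 11.9, 8.25 and 10.2 CPM.

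**Figure D2:**
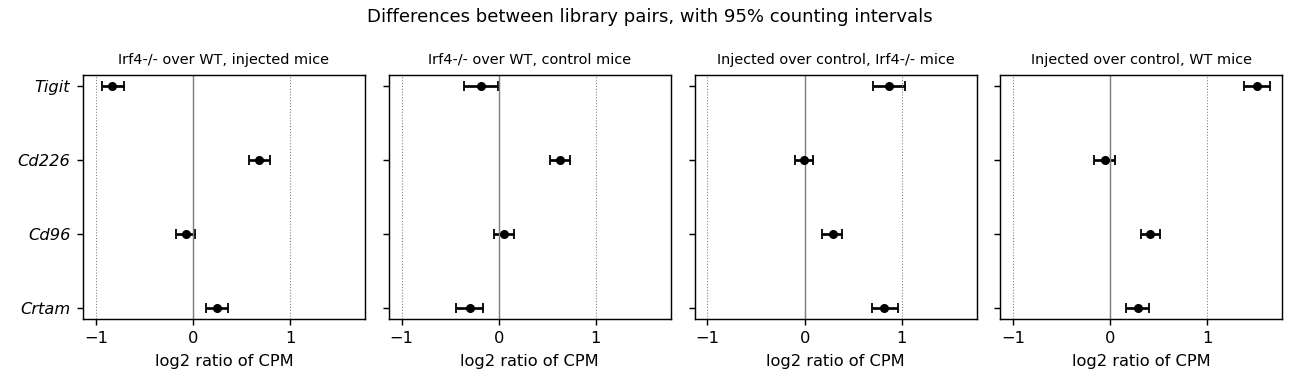
Log2 ratio of CPM for each receptor gene in the 4 comparisons of library pairs. Points are the ratios, bars the 95% counting intervals, and dotted lines mark 2-fold. For injection, in Irf4-/- and in WT mice, Tigit is at 0.87 and 1.51 and Cd226 at -0.01 and -0.06, and for the genotype label, in injected and in control mice, Cd226 is at 0.68 and 0.63.

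Cd226, the gene of the activating receptor DNAM-1 (ENSMUSG00000034028, chromosome 18, plus strand, 89176967 to 89272229), was higher in the libraries labelled Irf4-/- at like levels with and without injection. It had 1964 counts (105 CPM) in Irf4-/- injected, 1685 (106 CPM) in Irf4-/- control, 1215 (65.5 CPM) in WT injected and 1446 (68.3 CPM) in WT control. Both libraries labelled Irf4-/- lay above both WT libraries. Within each genotype, injected and control did not differ beyond counting error.

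The log2 ratio of Irf4-/- over WT was 0.68 (0.58 to 0.79) in injected mice and 0.63 (0.53 to 0.73) in control mice, below 2-fold in both. These pairs share no library. In the additive model Cd226 rose with the Irf4-/- label by 0.66 (SE 0.0939, adjusted p 0.00537, edgeR), higher in 2 of 2 pairs, as 1.22% of 11998 genes rose. Its ratio for injection was -0.01 (-0.10 to 0.09) in Irf4-/- mice and -0.06 (-0.17 to 0.05) in WT mice, and the additive injection change was -0.03 (SE 0.0936, adjusted p 0.902). The response to injection differed between genotypes by 0.05 (-0.09 to 0.20). DNAM-1 is also found on platelets. The platelet and megakaryocyte list was at 67.3 CPM in Irf4-/- injected, 49.2 in Irf4-/- control, 64.7 in WT injected and 41.4 in WT control, which followed injection, with 6 of 6 genes detected throughout. The integrin gene Itgb3 made up most of it, and Pf4, platelet factor 4, was at 0.284 to 0.755 CPM. Of the type 1 innate lymphoid list, Cxcr6, a chemokine receptor gene, was at 53.3 CPM in Irf4-/- injected, 29.8 in Irf4-/- control, 11.2 in WT injected and 8.13 in WT control. It rose with the label by 2.07 (edgeR adjusted p 7.89e-05), the 1 gene of 5 to do so. Itga1 (1.02, adjusted p 0.0692) and Zfp683 (0.84, adjusted p 0.0768) did not pass but were higher in both libraries labelled Irf4-/- than in either WT library. Il7r did not rise with the label, at -0.22 (edgeR adjusted p 0.623), and its ratio in injected mice was -0.47 (-0.55 to -0.40). Tmem176a (0.42, edgeR adjusted p 0.52) was at 9.36 CPM in Irf4-/- control, below its 10.7 CPM in WT injected. Of the regulatory T cell list, Foxp3 was at 2.04 and 2.76 CPM in the injected and control libraries labelled Irf4-/-, against 0.431 and 0.284 CPM in WT. It rose with the label (log2 change 2.73, edgeR adjusted p 0.0213). Ctla4 and Ikzf4, also of this list, were not higher with the label in both pairs. In Irf4-/- injected, Irf4-/- control, WT injected and WT control, Ctla4 was at 0.161, 0.251, 0.485 and 0.0473 CPM. Ikzf4 was at 0.536, 0.314, 0.539 and 0.331 CPM in that order. Foxp3 had 38, 44, 8 and 6 counts, most of the list in the libraries labelled Irf4-/-. The whole list (3 of 3 genes detected) was at 0.662 to 3.33 CPM. The part of these lists in the Cd226 result was not tested.

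The balance of inhibitory Tigit to activating Cd226 transcript can be read within a library, where scaling between libraries plays no part. For every 100 Cd226 counts there were 48.2 Tigit counts in Irf4-/- injected, 26.3 in Irf4-/- control, 138 in WT injected and 46.2 in WT control. WT injected was the 1 library with more Tigit than Cd226 counts. Irf4-/- injected and WT control had nearly the same ratio. The log2 of the ratio was lower in Irf4-/- than in WT by genotype, with a difference of -1.51 (-1.67 to -1.36) in injected mice and -0.81 (-1.01 to -0.61) in control mice. It was higher with injection, by 0.88 (0.69 to 1.06) in Irf4-/- mice and 1.57 (1.40 to 1.74) in WT mice. Per length, the FPKM ratio was 1.18 in Irf4-/- injected, 0.643 in Irf4-/- control, 3.37 in WT injected and 1.13 in WT control. By FPKM, Tigit thus exceeded Cd226 in every library but Irf4-/- control, unlike by counts. Which transcript is the more abundant therefore depends on the measure and on the gene lengths used.

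**Figure D3:**
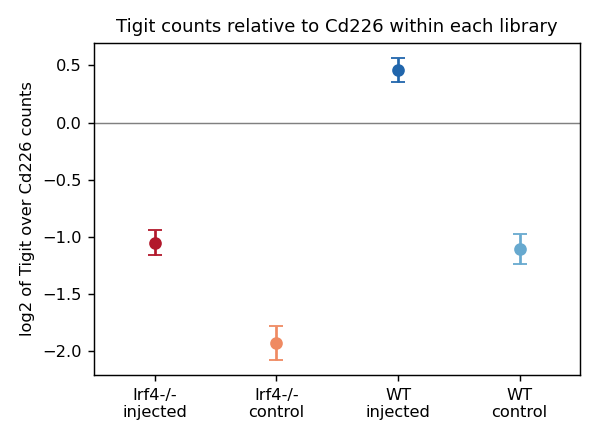
Log2 of Tigit counts over Cd226 counts in each library, with 95% counting intervals (normal approximation). The line at 0 marks equal counts, and WT injected, at 0.46, lies above it while the other libraries lie at -1.05 to -1.93.

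Cd96, the third receptor for CD155, did not differ by genotype beyond counting error and was modestly higher with injection. It had 1838 counts (98.6 CPM) in Irf4-/- injected, 1286 (80.8 CPM) in Irf4-/- control, 1922 (104 CPM) in WT injected and 1648 (77.9 CPM) in WT control. The libraries fell into an injected and a control level. Injected over control was 0.29 (0.18 to 0.39) in Irf4-/- mice and 0.41 (0.32 to 0.51) in WT mice. Counting intervals above 0 were common, in 20.4% and 30.2% of genes in those pairs. The additive injection change was 0.35 (SE 0.0951, adjusted p 0.134, edgeR) and did not pass, except with scaling factors from all genes, where the adjusted p was 0.0273. Irf4-/- over WT was -0.07 (-0.17 to 0.02) in injected mice and 0.05 (-0.05 to 0.16) in control mice. The additive genotype change was -0.01 (SE 0.095, adjusted p 0.993).

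Crtam, an activation-induced receptor (ENSMUSG00000032021, chromosome 9, minus strand, 40969691 to 41004628), was highest in Irf4-/- injected and lowest in Irf4-/- control. It had 1437 counts (77.1 CPM) in Irf4-/- injected, 693 (43.5 CPM) in Irf4-/- control, 1205 (65.0 CPM) in WT injected and 1132 (53.5 CPM) in WT control. Every step in this order exceeded counting error, and the WT libraries lay between those labelled Irf4-/-.

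Its ratio of injected over control was 0.82 (0.69 to 0.96) in Irf4-/- mice, at place 39 among 9702 genes, and 0.28 (0.16 to 0.40) in WT mice, at place 1525 among 9633. The difference of response was 0.54 (0.37 to 0.72), opposite in sign to that of Tigit, and 408 of 9674 genes had one at least as high. This difference, too, is untested. The additive injection change was 0.55 (SE 0.131, adjusted p 0.0942, edgeR) and did not pass. Its adjusted p was 0.0333 with upper-quartile scaling, 0.000752 with no filter and 0.000575 with scaling factors from all genes. Irf4-/- over WT was 0.25 (0.13 to 0.36) in injected mice and -0.30 (-0.44 to -0.16) in control mice, so the additive genotype change of -0.02 (SE 0.13, adjusted p 0.99) averages ratios of opposite sign.

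As a group, 1 of the 4 receptor genes rose and 0 fell with the genotype label, and 1 rose and 0 fell with injection. Of all 11998 genes, 1.22% rose and 0.258% fell with the label, and 0.333% rose and 0.392% fell with injection. At an unadjusted edgeR p under 0.05, Tigit was also lower with the label (p 0.00466), and Cd96 (p 0.00385) and Crtam (p 0.00161) were higher with injection. That makes 2 of 4 receptors for the label, against 10.4% of all genes, and 3 of 4 for injection, against 14.2%. The median log2 change with injection was 0.45 over the 4 receptors and 0 over all 11998 genes tested, and the median genotype change was -0.01 and 0. Genotype in injected mice and injection in WT mice share the WT injected library, so their values are not separate observations.

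Tigit was the 1 receptor whose level spanned at least 1 on the log2 scale, 1.69 between WT injected and Irf4-/- control. Among 9168 other protein-coding genes averaging 5 CPM or more, the pattern over the 4 libraries most like it was that of Fam184a, with a root mean square difference of 0.083 in centred log2 CPM. It had 29.6 CPM in Irf4-/- injected, 18.4 in Irf4-/- control, 61.1 in WT injected and 19.8 in WT control. Sdc4, a cell surface proteoglycan, followed at 0.131, the cold-inducible RNA-binding protein gene Cirbp at 0.135, the lysosomal membrane protein gene Tmem106b at 0.162 and the lysosomal sulfatase gene Sgsh at 0.171. The likeness is over 4 libraries that also share the library standing apart.

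Ligands of these receptors were scarce in the sorted cells. Of 9 genes for nectins and nectin-like proteins, 3 averaged at least 1 CPM, and 0 passed for genotype or injection in edgeR (0 at an unadjusted p under 0.05, and 0 by DESeq2 or limma-voom). Over all 11998 genes, 1.22% rose and 0.258% fell with the label, and 0.333% rose and 0.392% fell with injection. At an unadjusted edgeR p under 0.05 the shares were 10.4% for the label and 14.2% for injection. With 3 genes tested, a count of 0 does not set the ligands apart. Pvr, which encodes CD155, had 205 counts (11.0 CPM) in Irf4-/- injected, 158 (9.93 CPM) in Irf4-/- control, 136 (7.33 CPM) in WT injected and 208 (9.83 CPM) in WT control. WT injected was the lowest of the 4. Its log2 ratio of Irf4-/- over WT in injected mice was 0.58 (0.26 to 0.91), and its additive genotype change was 0.30 (SE 0.216, adjusted p 0.747). Cadm1, the CRTAM ligand, had 22 to 32 counts and Cadm3, an adhesion molecule of neurons, 33 to 62. The Cadm3 ratio for injection was 1.05 (0.47 to 1.76) in WT mice and -0.60 (-1.27 to 0.01) in Irf4-/- mice. By genotype it was -0.69 (-1.34 to -0.11) in injected mice and 0.96 (0.35 to 1.69) in control mice. Nectin2 had 0 counts in both libraries labelled Irf4-/-, which at a limit of 3 counts allows up to 0.161 CPM in the injected and 0.189 CPM in the control library, and 2 and 1 counts in WT injected and WT control.

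Signalling partners of the receptors were mostly abundant: 16 of 17 were at 82.8 CPM or more in every library, and Plcg1 was scarce. None of the 17 genes passed for genotype or injection in the additive model, where 1.22% of genes rose and 0.258% fell with the label and 0.333% rose and 0.392% fell with injection, and 0 were 2-fold different in a pair. Of all genes, 1.78% and 0.807% were 2-fold different by genotype in injected and control mice, and 0.35% and 1.9% by injection in Irf4-/- and WT mice. At an unadjusted p under 0.05 in edgeR, 2 of 17 passed for genotype, against 10.4% of all genes, and 1 for injection, against 14.2%, and DESeq2 and limma-voom called 0 for either. Within pairs, differences beyond counting error were common. For genotype in injected mice 8 partners had an interval above 0 and 6 below, and in control mice 5 and 5, while the intervals of all genes excluded 0 in 54.7% and 36.6%. For injection 6 were above and 7 below in WT mice, and 6 and 5 in Irf4-/- mice. Among genes averaging 5 CPM or more, intervals lay above 0 for 30.2% in WT mice and 20.4% in Irf4-/- mice. The share of all genes below 0 was not computed for injection, so the 7 and 5 partners below 0 cannot be set against it. Counting intervals are narrower for abundant genes such as these. The partners were not compared with genes of like abundance, so whether these counts set them apart was not tested. Plcg2, a phospholipase downstream of activating receptors, was at 313 CPM in Irf4-/- injected, 271 in Irf4-/- control, 162 in WT injected and 240 in WT control. WT injected was again the lowest, and Irf4-/- over WT in injected mice was 0.95 (0.89 to 1.01). Its additive genotype change was 0.56 (SE 0.158, p 0.00471, adjusted p 0.166, edgeR). Ptpn6, the gene of the phosphatase SHP-1 recruited by inhibitory receptors, was at 146, 152, 109 and 198 CPM in the same order of libraries, a ratio of -0.85 (-0.93 to -0.78) for injection in WT mice, with an edgeR injection change of -0.46 (SE 0.157, p 0.015, adjusted p 0.227). Foxo1, a transcription factor that DNAM-1 signalling holds out of the nucleus, was at 121, 93.8, 82.8 and 83.9 CPM, with an edgeR genotype change of 0.35 (SE 0.11, p 0.00871, adjusted p 0.224). Plcg1, a second phospholipase, was at 8.21, 10.2, 11.5 and 5.91 CPM in the same order of libraries. Its ratio for injection was 0.95 (0.64 to 1.30) in WT mice and -0.32 (-0.65 to 0.01) in Irf4-/- mice. By genotype its ratio was -0.49 (-0.80 to -0.19) in injected mice and 0.78 (0.45 to 1.14) in control mice.

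**Figure D4:**
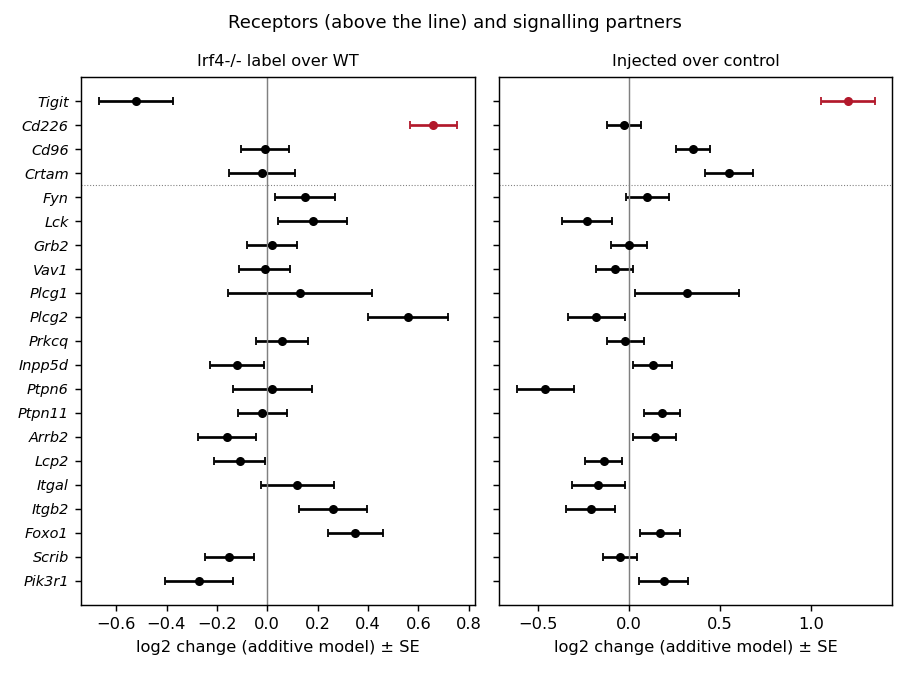
Additive log2 changes of the 4 receptor genes (above the dotted line) and 17 signalling partners, with standard errors as bars, for the Irf4-/- label on the left and injection on the right. Red marks an edgeR adjusted p under 0.05, reached by Cd226 for the label (0.66) and by Tigit for injection (1.20).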

How the data were processed

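The values are gene-level results of 4 RNA sequencing libraries of sorted NK cells. The deposited tables give raw whole-number counts for each gene and the authors' FPKM values. Per the submitters' processing notes, TopHat and edgeR were used with the mm10 genome; no source used here names the counting tool, annotation or strand setting. Per the labels' protocols, libraries were made with a SMARTER mRNA kit. Symbols and GRCm38 positions came from GENCODE M21, which matched 34490 of 35275 identifiers. Every value column matched 1 labelled sample.

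A gene was kept if it reached 1 CPM in 2 or more libraries, and trimmed mean of M values (TMM) factors were computed on them in edgeR 4.0.16 (R 4.3.3). Log2 ratios used a prior count of 2, with exact (Clopper-Pearson) 95% counting intervals. Genes were tested with glmQLFit and glmQLFTest, two-sided, with genotype and injection as additive terms, and p-values were adjusted by Benjamini-Hochberg over all genes at 0.05. The prior had 9.62 degrees of freedom. A standard error is the log2 change over the root of F. DESeq2 1.42.0 and limma-voom (limma 3.58.1) were alternatives.

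The receptors, the ligand, partner and marker lists and the rule for named genes were chosen with earlier results of these data known. That rule names the receptors, ligands averaging at least 1 CPM, partners past a test or among the 2 largest ratios of a pair, and the 5 genes most like in pattern to a receptor spanning at least 1 on the log2 scale. Nectin2, Ncr1 and the named marker genes of other cells were added after their values were seen. Whether TMM factors were taken before or after the filter was settled after both were seen, by edgeR's usual order; the closing section gives the other.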

Additional observations from a re-analysis of the deposited data

Results flagged for a closer look

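Crtam had genotype ratios of opposite sign. The log2 ratio of Irf4-/- over WT was 0.25 in injected mice and -0.30 in control mice, and both counting intervals excluded 0. With 1 library per group, the difference between these ratios was not tested.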

How the results depend on the processing

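All 96 values of the log2 ratios, differences of response and Tigit to Cd226 ratios under other scalings, a prior count of 0.5 or FPKM with a pseudocount of 0.1 stayed within the counting interval of the reported value. These settings left little room to move, since TMM factors were 0.995 to 1. The deposited FPKM are the same counts over library total and a fixed gene length, so they are no separate measurement. Adjusted p-values depended more on the processing. The additive model has 1 residual degree of freedom, and the prior degrees of freedom were 9.62 as reported, 96.8 with scaling factors from all genes (an alternative chosen after seeing the data), 14.0 with upper-quartile scaling, 308 with no filter and 4.11 with the other term left out. The rise of Cd226 with the label and of Tigit with injection passed in 7 of 8 alternatives each. With the other term left out, Cd226 had 0.66 (adjusted p 0.0877) and Tigit 1.24 (adjusted p 0.483). Tigit passed for the label in 2 of 8, at -0.53 with factors from all genes and -0.52 with no filter. Crtam passed for injection in 3 of 8, at 0.55 with factors from all genes or no filter and 0.56 with upper-quartile scaling, and Cd96 in 1 of 8, at 0.35 with factors from all genes. The genotype change of Crtam reversed in sign, at 0.03 with injection left out and 0.00 by limma-voom against -0.02 as reported, never near the threshold (adjusted p 0.997 and 0.999). Over all genes, with the label 146 rose and 31 fell. These counts were 299 and 146 with factors from all genes, 326 and 152 with no filter, 3 and 2 with injection left out, and 14 fell by DESeq2. With injection 40 rose and 47 fell, against 299 and 292 with factors from all genes, 113 and 100 with upper-quartile scaling, 311 and 303 with no filter, and 0 and 0 with genotype left out. The cause of these shifts was not tested. Ordered by CPM, which ignores gene length, Tigit was at place 4 of 4 in Irf4-/- injected, Irf4-/- control and WT control and at place 2 in WT injected. No paired analysis was possible because each group holds 1 library and the labels give no replicate numbers. Leaving out WT injected leaves no residual degree of freedom, so the calls cannot be tested without it. At these depths 3 counts correspond to 0.142 to 0.189 CPM.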
